A study of Rattus norvegicus with 8 samples.

Results

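The transcripts of 7 genes of complement C1q and antigen presentation were followed in intact upper spinal cord of rats: Aif1, C1qa, C1qb, C1qc, Cd74, RT1-Da and B2m. They were taken as a list of Ensembl rat gene IDs (ENSRNOG00000000853 for Aif1, ENSRNOG00000012807 for C1qa, ENSRNOG00000012749 for C1qb, ENSRNOG00000012804 for C1qc, ENSRNOG00000018735 for Cd74, ENSRNOG00000032844 for RT1-Da and ENSRNOG00000017123 for B2m), 7 of the 32883 in the deposited table. All 7 had counts in each of the 8 libraries. The rats were of the outbred Sprague Dawley strain, and every animal had a hemisection of the cord at the ninth thoracic segment (T9). Upper cord, described as intact, was collected on day 23 after injury from animals with training (trained, 4 samples) and from animals without it (untrained, 4 samples). Both groups share the injury, and no uninjured cord is among the samples analysed here. What the training consisted of, when it began, how old the rats were, their sex and which segment was taken is not stated in the labels. All 8 titles and column names carry the code L1, whose meaning they do not give. Nor do the labels tie each sample to its own animal; the p-values measure the spread over samples, which may be technical.

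C1q starts the classical complement cascade. It is built from equal numbers of A, B and C chains, encoded by C1qa, C1qb and C1qc, and in the central nervous system it is made mainly by microglia, where it is known for tagging synapses and debris for removal. Aif1 encodes Iba1, the calcium-binding protein used to stain microglia and macrophages. Cd74 encodes the invariant chain that escorts MHC class II molecules to the endosome, and RT1-Da encodes a class II alpha chain of the rat MHC. B2m encodes beta-2 microglobulin, the light chain of MHC class I molecules, which nearly all nucleated cells make. Class II is carried by activated microglia and also by macrophages at vessels and meninges, by dendritic cells and by B cells. The IDs of microglial and other cell-type markers could not be matched to symbols here, so the microglial label of these genes rests on what is known of them. In bulk tissue, fewer cells of a type and less RNA per cell cannot be told apart.

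Library totals ran from 141737 to 298262 counts, and the 2 deepest libraries were untrained samples 1 and 2. Levels are CPM, counts scaled by the column total. The libraries count 3' ends of transcripts with molecular identifiers, so no value was divided by transcript length, and levels of different genes compare counted 3' ends. A count of 3 in a library corresponds to 10.1 to 21.2 CPM, and counting error of this size applies to the genes with few counts. Of the 7 genes, 6 passed the expression filter (at least 10 counts at the median library size, which is 50.9 CPM, in 4 libraries). Cd74 did not: it reached 50.9 CPM in 2 of 8 libraries.

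For none of the 7 genes did a difference between trained and untrained cord pass the test. Of the 6 that could be tested, 0 reached an adjusted p under 0.05 (edgeR quasi-likelihood test with Benjamini-Hochberg adjustment over all 3016 genes tested). This fit left out the sample number, which the fit with a block, given further below, takes in. Their adjusted p was 0.9995 in each case. The background was the same, with 0% of all genes called by edgeR. At an unadjusted p under 0.05 there were 0 of the 6, against 1.72% of all genes (52 of 3016), and DESeq2 called 0 genes as well, with 60 of 12539 at an unadjusted p under 0.05. The trained and untrained ranges overlapped for 7 of 7 genes, against 1.46% of all genes tested whose ranges did not overlap. None of the 7 differed in 1 direction in all 4 same-number pairs, which 15.7% of all genes tested did. The fitted log2 fold change of trained over untrained was above 0 for 5 and below 0 for 1 of the 6 genes, with a median of 0.13, and the median over all genes tested was -0.07. Scaling by TMM moved the median of all genes by 0.07 on the log2 scale. Each 95% interval given below is for 1 gene, with no adjustment for testing many.

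**Figure D1:**
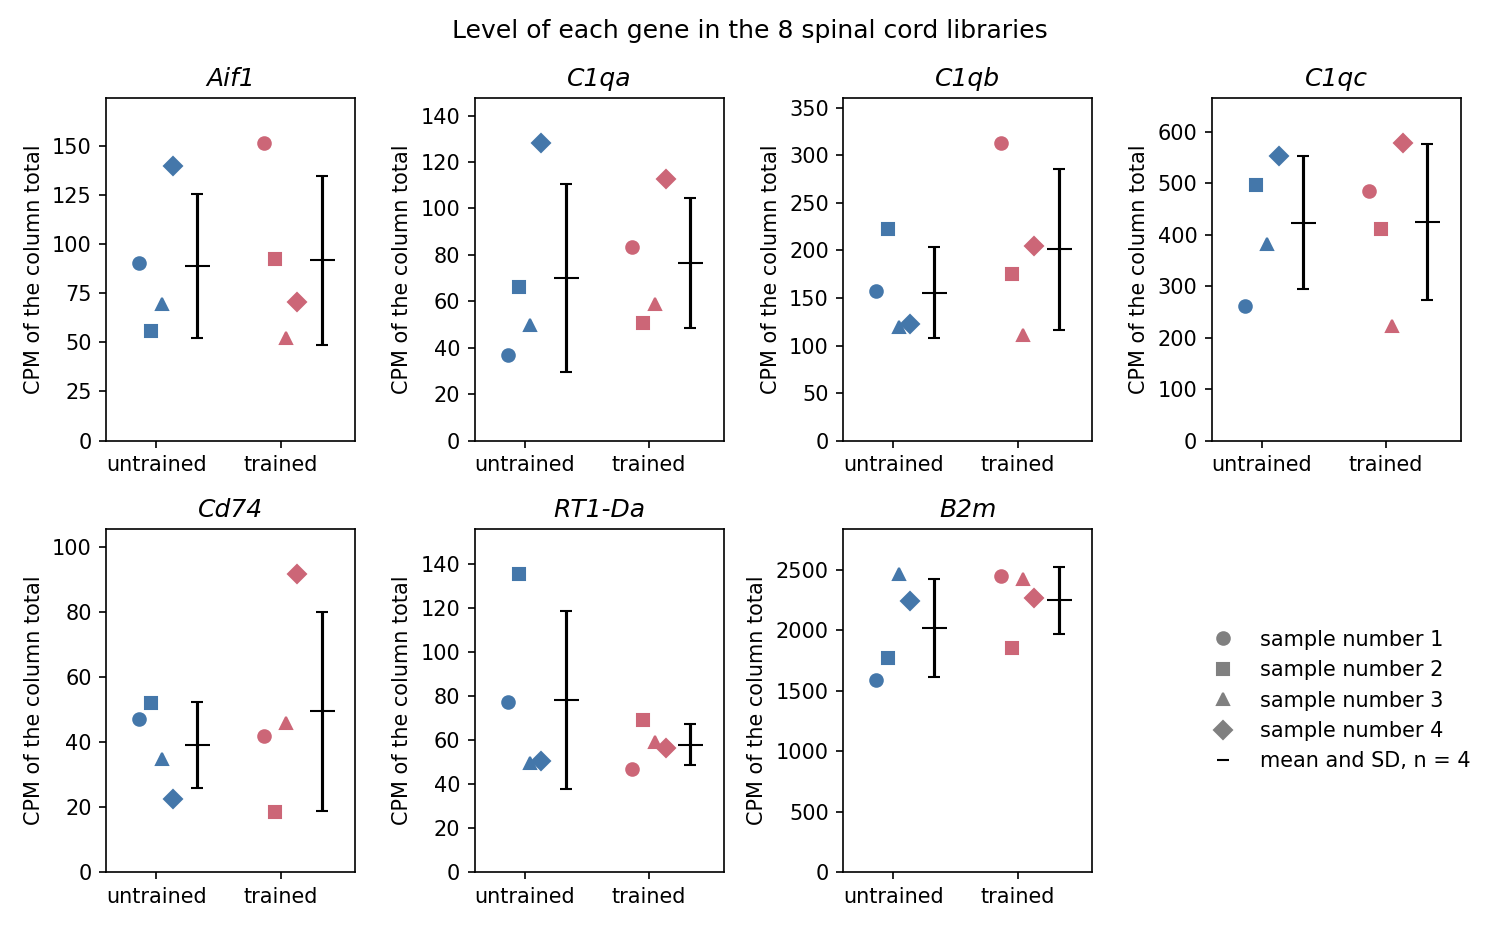
Level of each gene in CPM of the column total (linear axes from 0), with 1 point per library, the shape giving the sample number and the bars the mean and SD of 4 libraries. Trained and untrained values overlap in every panel.

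Aif1, the microglial marker, was measured on 8 to 29 counts per library. Its level was 90.5, 55.6, 69.5 and 139 CPM in untrained samples 1 to 4. Trained samples 1 to 4 were at 151, 92.3, 52.4 and 70.6 CPM. The highest untrained and the highest trained library carried different numbers, 4 and 1, and each group had a value below 60 CPM. The trained mean was 91.7 ± 43.1 CPM and the untrained mean 88.8 ± 36.7 CPM (SD, n = 4), a fitted log2 fold change of 0.10 (SE 0.37, 95% interval -0.66 to 0.87, adjusted p = 0.9995 by edgeR). Without trained sample 1 the log2 fold change was -0.25 and without untrained sample 2 it was -0.08, so the sign of this small difference rests on single libraries.

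C1qc and C1qb were counted more often than Aif1, and C1qa less often. In the RefSeq gene table of assembly GRCr8, C1qb, C1qc and C1qa are direct neighbours. RefSeq start-site windows (250 bases before to 50 after the start) were held for C1qa and C1qb. These 2 genes lie on either side of C1qc, and the ratio of their counts, counting error included, varied from library to library, as the values below show. The windows are printed as a description, and a link to that ratio was not tested. The C1qa window is chr5:154419884-154420183 (minus strand) and the C1qb window chr5:154407778-154408077 (minus strand), both GRCr8, an assembly other than the Rnor_6.0 of the counts. Capitals mark GGAAGT on either strand. It holds GGAA, the core recognised by Ets factors such as PU.1, a lineage factor of microglia and macrophages. Other GGAA strings in both windows are not marked.
C1qa: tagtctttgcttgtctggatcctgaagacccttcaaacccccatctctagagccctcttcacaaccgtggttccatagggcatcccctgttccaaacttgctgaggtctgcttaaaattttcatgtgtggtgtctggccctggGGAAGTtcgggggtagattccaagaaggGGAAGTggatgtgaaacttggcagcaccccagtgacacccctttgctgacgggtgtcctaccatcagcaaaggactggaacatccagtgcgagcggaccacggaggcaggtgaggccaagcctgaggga
C1qb: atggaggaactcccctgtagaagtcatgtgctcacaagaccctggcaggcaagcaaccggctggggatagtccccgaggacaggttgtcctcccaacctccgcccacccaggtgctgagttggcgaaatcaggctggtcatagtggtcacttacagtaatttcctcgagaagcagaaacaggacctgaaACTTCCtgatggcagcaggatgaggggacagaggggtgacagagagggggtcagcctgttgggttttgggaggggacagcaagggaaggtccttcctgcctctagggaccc
C1qa holds GGAAGT at 107 and at 79 bases before the start, and C1qb holds its reverse complement at 61 bases before the start, counted to the leftmost base. Of the 33469 windows of this length in the table, 22.6% hold this motif on either strand. A match is a description of the letters and not evidence that a factor binds there.

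C1qa was measured on 9 to 23 counts per library. Its level was 36.9, 66.0, 49.6 and 128 CPM in untrained samples 1 to 4. In the trained samples it was, in the same order, 83.6, 50.8, 58.9 and 113 CPM. Sample 4 was the highest of its group in both groups. C1qa averaged 76.5 ± 27.95 CPM in trained and 70.2 ± 40.5 CPM in untrained samples (SD, n = 4; log2 fold change 0.15, SE 0.40, 95% interval -0.68 to 0.99). Its sign rests on single libraries: the log2 fold change was -0.08 without untrained sample 1 and -0.07 without trained sample 4.

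C1qb was measured on 17 to 64 counts per library. Its level was 158, 222, 119 and 123 CPM in untrained samples 1 to 4. With training the 4 values were 313, 175, 111 and 205 CPM. Trained sample 1 stood above all 7 other libraries, while the lowest trained value lay under the lowest untrained one. The trained mean was 201 ± 84.3 CPM and the untrained mean 155 ± 47.8 CPM (SD, n = 4; log2 fold change 0.36, SE 0.31, 95% interval -0.29 to 1.01), the largest positive difference of the 6 genes tested. It was 0.06 without trained sample 1.

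C1qc had the most counts of the chains, 34 to 143 per library. Its level was 262, 497, 382 and 552 CPM in untrained samples 1 to 4. Trained samples 1 to 4 were at 486, 411, 223 and 579 CPM. Sample 4 was again the highest in each group, and the lowest values were in untrained sample 1 and trained sample 3. C1qc averaged 424 ± 151 CPM in trained and 423 ± 129 CPM in untrained samples (SD, n = 4; log2 fold change 0.01, SE 0.29, 95% interval -0.60 to 0.62). A 2-fold difference of C1qc in either direction lies outside this interval, which reaches from 0.659-fold to 1.54-fold.

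The summed C1q level was 456, 785, 551 and 803 CPM in untrained samples 1 to 4 and 882, 637, 393 and 896 CPM in trained samples 1 to 4. The lowest and the highest of the 8 were both trained libraries. It averaged 702 ± 238 CPM over trained and 649 ± 172 CPM over untrained samples (SD, n = 4). For each Aif1 count there were 5.04 to 14.1 C1q counts in untrained and 5.83 to 12.7 in trained libraries. With 8 to 29 Aif1 counts per library this ratio is imprecise, and its spread was not set against counting error.

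The chains were counted unequally. C1qc was above C1qb in 8 of 8 libraries, and C1qb above C1qa in 7 of 8, the exception being untrained sample 4 with 22 counts of C1qb and 23 of C1qa. C1qc took 60.2% ± 5.06 of C1q counts with training and 64.7% ± 5.60 without, C1qb 28.6% ± 5.23 and 24.9% ± 8.33, and C1qa 11.3% ± 3.15 and 10.4% ± 3.75 (SD, n = 4). How completely each 3' end was captured and annotated was not tested, so these shares describe counted ends and not protein chains.

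The share of C1qb had the largest SD of the chains in each group. It was 34.6%, 28.3%, 21.6% and 15.3% in untrained samples 1 to 4, and 35.5%, 27.5%, 28.3% and 22.8% in trained samples 1 to 4. The interval of trained sample 1 (28.7% to 42.97%, Wilson 95%) lay above that of untrained sample 4 (10.3% to 22.05%), as did that of untrained sample 1 (27.1% to 42.9%). These libraries were picked for their high and low shares after the values were seen, and the intervals are not adjusted for that choice. In each group sample 1 had the highest and sample 4 the lowest C1qb share. These intervals cover counting error only, on 60 to 226 C1q counts per library.

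**Figure D2:**
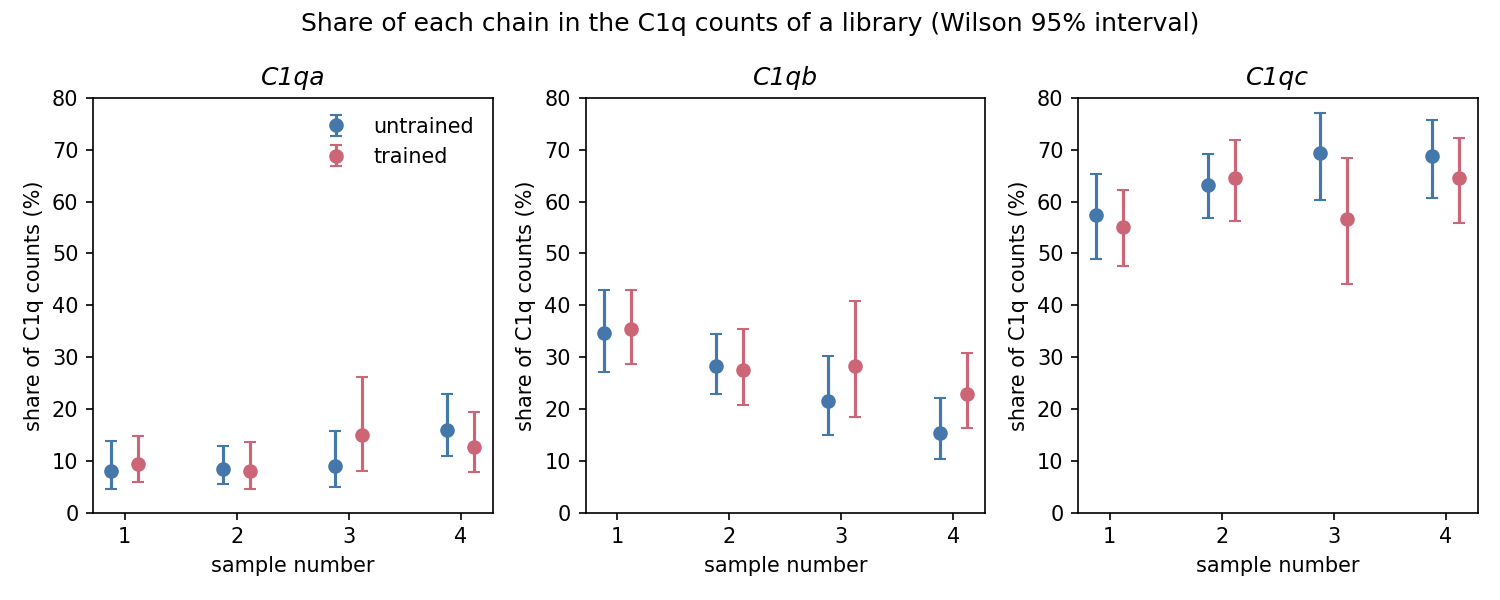
Share of each chain in the summed C1q counts of a library (vertical axis, percent) by sample number (horizontal axis), with Wilson 95% intervals. The C1qb share is highest in sample 1 of both groups, at 34.6% and 35.5%, and the groups overlap for each chain.

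Cd74 had the lowest mean level of the set over the 8 libraries, 44.2 CPM, and RT1-Da at 68.0 CPM was close to C1qa at 73.4 CPM. Start-site windows of RefSeq are printed for Cd74, RT1-Da and B2m because promoters of class II genes, the invariant chain and B2m are known to carry related X and Y boxes, bound by RFX and NF-Y factors, while the levels of the 3 genes did not share 1 pattern over these libraries. The windows are chr18:56526956-56527255 (plus strand) for Cd74, chr20:4515165-4515464 (plus strand) for RT1-Da and chr3:129549080-129549379 (plus strand) for B2m, all GRCr8. Capitals mark CCAAT, the core of the Y box, and TAGCAAC, a string found in X boxes, each on either strand.
Cd74: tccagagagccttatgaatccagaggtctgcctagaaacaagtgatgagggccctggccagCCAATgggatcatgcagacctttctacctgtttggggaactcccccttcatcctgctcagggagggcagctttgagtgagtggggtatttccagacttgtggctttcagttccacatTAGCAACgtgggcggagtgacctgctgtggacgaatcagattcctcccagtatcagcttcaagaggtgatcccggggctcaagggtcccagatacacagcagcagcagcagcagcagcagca
RT1-Da: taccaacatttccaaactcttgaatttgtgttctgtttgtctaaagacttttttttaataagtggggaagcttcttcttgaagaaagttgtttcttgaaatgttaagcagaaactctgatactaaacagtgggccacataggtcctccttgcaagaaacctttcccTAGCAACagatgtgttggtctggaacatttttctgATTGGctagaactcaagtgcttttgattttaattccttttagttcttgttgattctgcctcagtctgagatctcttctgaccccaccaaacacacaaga
B2m: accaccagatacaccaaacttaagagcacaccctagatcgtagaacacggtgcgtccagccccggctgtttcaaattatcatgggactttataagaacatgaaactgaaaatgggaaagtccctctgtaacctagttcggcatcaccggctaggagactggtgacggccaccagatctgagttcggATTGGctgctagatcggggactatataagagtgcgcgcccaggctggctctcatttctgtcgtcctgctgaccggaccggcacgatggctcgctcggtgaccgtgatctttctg
RT1-Da holds TAGCAAC at 84 and the reverse complement of CCAAT at 49 bases before the start. Cd74 holds TAGCAAC at 72 bases before the start, with a CCAAT further out at 189. B2m holds the reverse complement of CCAAT at 64 bases before the start, and no TAGCAAC. Of all 33469 windows, 37.5% hold CCAAT and 3.58% TAGCAAC on either strand. These motifs do not overlap in the 3 windows. The motifs were picked after the sequences were seen, and the matches show nothing about the use of these sites in the cord.

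Cd74 had only 4 to 15 counts per library. Its level was 46.9, 52.1, 34.7 and 22.3 CPM in untrained samples 1 to 4. In the trained samples it was, in number order, 41.8, 18.5, 45.8 and 91.7 CPM. Trained sample 4 was the highest library and trained sample 2 the lowest. The trained mean was 49.4 ± 30.7 CPM and the untrained mean 39.0 ± 13.3 CPM (SD, n = 4), a difference within the spread between libraries (two-sided exact permutation test over 70 allocations, p = 0.657; the smallest p this design can give is 0.0286). Without trained sample 4 the trained mean was 35.4 CPM, below the untrained one. No difference in Cd74 was detected. Fitted without the filter, its 95% interval reached from 0.646-fold to 2.07-fold.

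RT1-Da was measured on 8 to 39 counts per library. Its level was 77.1, 135, 49.6 and 50.2 CPM in untrained samples 1 to 4. With training it was 47.0, 69.3, 58.9 and 56.4 CPM. Untrained sample 2 stood above the other 7 libraries, and the other untrained values ran from 49.6 to 77.1 CPM against 47.0 to 69.3 CPM with training. The trained mean was 57.9 ± 9.14 CPM and the untrained mean 78.1 ± 40.3 CPM (SD, n = 4; log2 fold change -0.47, SE 0.37, 95% interval -1.24 to 0.30). This was the only negative value among the 6 genes tested, and without untrained sample 2 it was -0.05. Reads of RT1-Da could be shared with related class II genes, and how such reads were counted is not stated.

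RT1-Da exceeded Cd74 in 7 of 8 libraries, and the exception was trained sample 4 with 8 counts of RT1-Da and 13 of Cd74. There were 1.43 to 2.60 RT1-Da counts per Cd74 count in untrained and 0.615 to 3.75 in trained libraries. With so few counts, this ratio is imprecise in each library.

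B2m was the most abundant of the 7 in all 8 libraries, with 322 to 511 counts, and ranked 46 by mean CPM among the 12545 genes with a count. Its level was 1593, 1775, 2467 and 2243 CPM in untrained samples 1 to 4. Trained samples 1 to 4 held 2449, 1851, 2429 and 2272 CPM. The trained values lay within the untrained range, and untrained samples 1 and 2 were the lowest of the 8. B2m averaged 2250 ± 277 CPM in trained and 2019 ± 405 CPM in untrained samples (SD, n = 4; log2 fold change 0.16, SE 0.21, 95% interval -0.29 to 0.60). It was the only one of the 7 with the trained value above the untrained one in 3 of 4 same-number pairs; for the other 6 genes this was so in 2 of 4.

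Levels were set against library depth by the slope of log2 count on log2 library total across the 8 libraries, which is 1 for a gene that keeps its share. It was 0.98 for Aif1, 0.0162 for C1qa, 1.25 for C1qb, 0.80 for C1qc, 0.68 for Cd74, 1.91 for RT1-Da and 0.48 for B2m. C1qa was thus the farthest from 1, with 9 to 23 counts at every depth, and its lowest level was in the deepest library. The 2 deepest libraries, untrained samples 1 and 2, had the 2 lowest B2m and the 2 highest RT1-Da levels. Genes of like abundance were those that passed the filter with a mean count within 1.5-fold. There were 1347 such genes for C1qa, 1383 for RT1-Da and 55 for B2m. The median slope, taken only over those of them with a count in every library, was 1.26, 1.27 and 1.11 in the same order. Because untrained libraries were on average deeper, depth goes in part with the group, and its part in the values of the 7 genes was not tested.

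**Figure D3:**
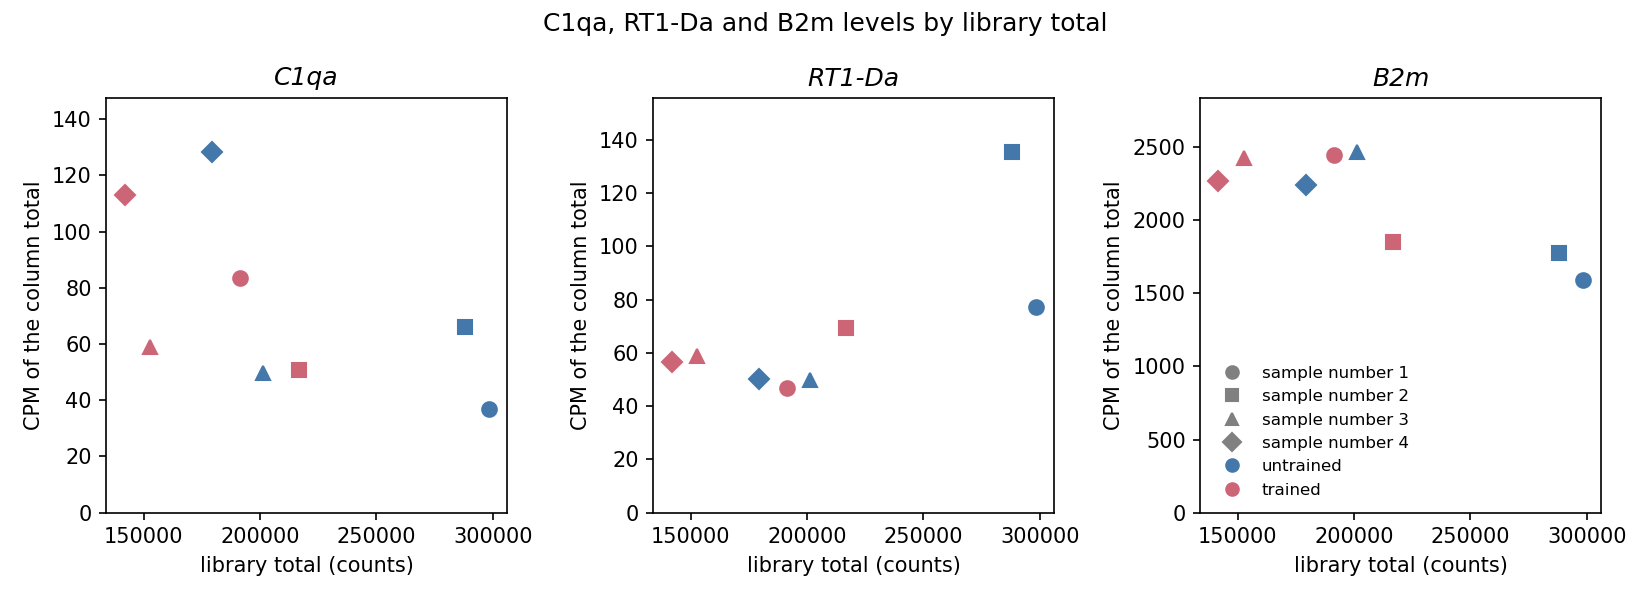
C1qa, RT1-Da and B2m levels (CPM of the column total, linear axes from 0) against the library total in counts (horizontal axis), 1 point per library, with colour for the group and shape for the sample number. The 2 deepest libraries have the highest RT1-Da and the lowest B2m levels, and the deepest has the lowest C1qa level.

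The fit with the sample number as a block gave narrower intervals and called none of the 6 genes, against 0.0663% of all genes, which is 2 of 3016. Those 2 were ENSRNOG00000018991 (log2 fold change 1.23) and ENSRNOG00000062158 (log2 fold change 1.22), each with an adjusted p of 0.0448 by edgeR, named because the count is small and after their values were seen. Both calls were lost with TMM and the block, at adjusted p of 0.108 and 0.266 by edgeR. In the blocked fit with column totals, 172 of 3016 genes had an unadjusted p under 0.05 by edgeR, against 52 without the block. The lowest unadjusted p among the 6 genes was then 0.138 by edgeR, for RT1-Da. With the block the log2 fold changes were 0.14 for Aif1, 0.17 for C1qa, 0.34 for C1qb, 0.01 for C1qc, -0.47 for RT1-Da and 0.17 for B2m, with adjusted p from 0.826 to 0.997. The 95% interval then reached from 0.754-fold to 1.35-fold for C1qc and from 0.933-fold to 1.36-fold for B2m. For C1qb it reached from 0.909-fold to 1.77-fold and for RT1-Da from 0.466-fold to 1.12-fold. It was 0.708-fold to 1.71-fold for Aif1 and 0.725-fold to 1.76-fold for C1qa. A 2-fold lower level of RT1-Da with training therefore lies inside its interval. A 2-fold difference of the other 5 genes lies outside in this blocked fit of all 8 samples, but not in every fit. DESeq2 gave log2 fold changes of 0.19 (SE 0.48) for C1qa and 0.43 (SE 0.34) for C1qb. Blocked fits put C1qb at 0.64 (SE 0.25) without both samples numbered 2, and Aif1 at 0.48 (SE 0.31) without both numbered 4. Without the block the C1qb interval reached 2.01-fold.

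**Figure D4:**
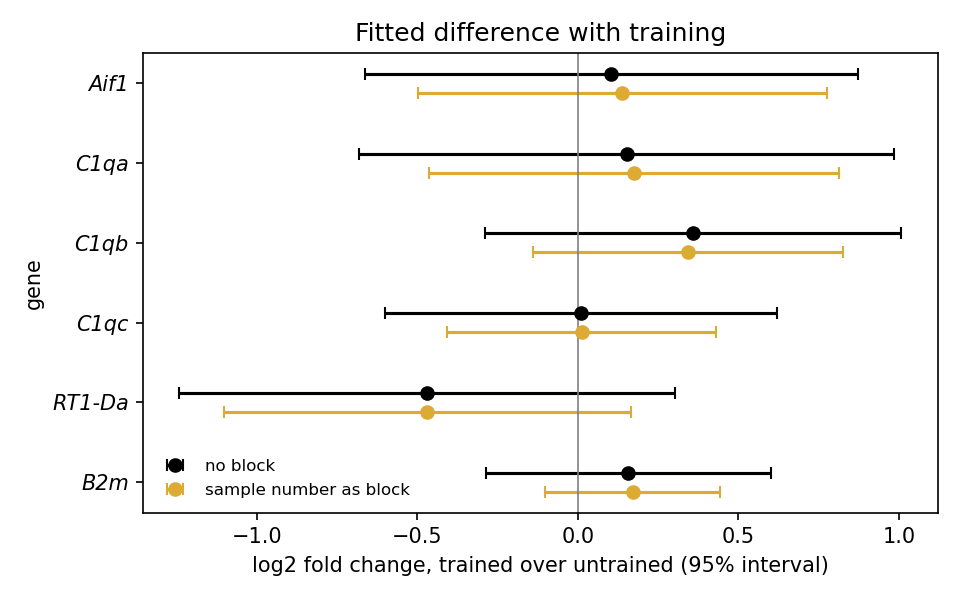
Fitted log2 fold change of trained over untrained with its 95% interval for the 6 genes tested, without a block (black) and with the sample number as a block (yellow). All intervals include 0.

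The spread between libraries was set beside counting error. Counts were set against library totals by a chi-square statistic divided by its degrees of freedom, which is near 1 for counting error alone. It was 2.97 for Aif1, 2.94 for C1qa, 4.92 for C1qb, 7.87 for C1qc, 1.94 for Cd74, 2.997 for RT1-Da and 13.4 for B2m. Medians over genes of like abundance that passed the filter were 1.65, 1.49, 2.28, 4.09, 1.36, 1.51 and 16.1 in the same order. The 6 genes other than B2m were thus above the median of their abundance class. Cd74 did not pass the filter itself, so it was set beside genes selected for their level. No test of these differences was run.

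Differences among the 4 sample numbers missed the threshold in all 6 genes as well. In a fit of number and group, 0 of 6 had an adjusted p under 0.05, where 15.6% of all genes tested did (470 of 3016, edgeR). At an unadjusted p under 0.05 by edgeR there were 2 of 6, where 32.6% of all genes had such a p. These were C1qa (adjusted p = 0.122 by edgeR) and C1qc (adjusted p = 0.125 by edgeR). Averaged over both groups, C1qa was at 60.2, 58.4, 54.3 and 121 CPM in samples 1 to 4 and C1qc at 374, 454, 302 and 565 CPM. Both were thus highest in samples 4 and lowest in samples 3. C1qb was at 235, 199, 115 and 164 CPM, highest in samples 1. Whether C1qc passed depended on single libraries: its adjusted p was 0.00129 without trained sample 1, 0.0209 without untrained sample 1 and 0.0458 without untrained sample 3. B2m had an adjusted p of 0.00853 without trained sample 1 and 0.0479 without untrained sample 1, C1qa 0.0288 without trained sample 1, and C1qb 0.028 without untrained sample 1. In those fits the share of all genes called was 19.1% without trained sample 1 (633 of 3319), 19.6% without untrained sample 1 (617 of 3143) and 13.5% without untrained sample 3 (427 of 3165). In the other 5 fits with 1 sample left out, 0 of the 6 genes were called, and Cd74 was tested in none of these fits. There the share of all genes called was 10.8% without trained sample 3, 3.68% without trained sample 2 (116 genes), 3.03% without untrained sample 2 (96), 2.89% without trained sample 4 (96) and 1.76% without untrained sample 4 (58).

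Pairs of these genes were compared over the 8 samples on log2 CPM, with two-sided exact permutation tests adjusted over the pairs. Among the 21 pairs, C1qa and C1qc were the most alike (Pearson r = 0.74, exact permutation p = 0.0372, adjusted p = 0.391; Spearman rho = 0.81, exact permutation p = 0.0218, adjusted p = 0.229). Without the 2 samples farthest from the median C1qa level, r was 0.57, and with both genes centred within sample numbers it was 0.61. For C1qa, C1qc ranked 69 among all genes tested by r, and for C1qc, C1qa ranked 54. C1qb had r = 0.19 with C1qa (exact permutation p = 0.64) and r = 0.50 with C1qc (exact permutation p = 0.21). Without the 2 samples farthest from the median of the first gene, these were 0.64 for C1qa with C1qb and 0.24 for C1qb with C1qc, and centred within numbers they were 0.69 and 0.71. The pair of chains with the highest r was thus not the same in these 3 sets of values. The samples left out differ with the first gene of a pair, and differences between the r values were not tested.

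RT1-Da and B2m had the strongest negative relation (r = -0.75, exact permutation p = 0.0185, adjusted p = 0.388; rho = -0.86, exact permutation p = 0.0107, adjusted p = 0.225). Without the 2 samples farthest from the median RT1-Da level, r was -0.798, and centred within numbers it was -0.64. The depth values above move with both genes, and their part in this relation was not tested. Cd74 and RT1-Da, whose products meet in 1 complex, had r = 0.17 (exact permutation p = 0.642), 0.63 without the 2 samples farthest from the median Cd74 level and 0.62 centred within numbers. Aif1 correlated at r = 0.37 with C1qa, 0.33 with C1qb and 0.40 with C1qc (exact permutation p = 0.357, 0.424 and 0.326). Without the 2 samples farthest from the median Aif1 level these were -0.40, 0.16 and 0.0438. Leaving out the extreme Aif1 levels narrows its range, which can lower r by itself. The lower values therefore do not show that the correlations rest on those samples. Centred within numbers, r was 0.38, -0.0904 and 0.40. No pair passed after adjustment over the 21 (adjusted p of r from 0.388 to 0.937 by exact permutation). All pairs share library totals, and same-number samples cannot be taken as independent. The values centred within numbers rest on 4 pairs and are given as descriptions, with no test.

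Among the 1224 other genes tested with a mean count of 30 or more, those most like the summed C1q level over the 8 samples were ENSRNOG00000014765 (r = 0.93) and ENSRNOG00000007393 (r = 0.91). These are the top values of a ranking over many genes and carry no test.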

How the data were processed

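CEL-Seq2 libraries of spinal cord RNA from 8 samples were analysed. The authors deposited whole-number counts per Ensembl rat gene ID, called UMI counts; HISAT2 2.0.4, HTSeq 0.6.0 and Rnor_6.0 are listed in the submitters' processing notes. No source used here states the annotation release, strand setting or UMI rules, so overlapping and antisense genes could share counts. Column names matched 1 sample title each. The symbols came with the list of IDs; neither the table nor the RefSeq gene table (0 Ensembl IDs) pairs them, so the pairing was not checked. For the same reason the pathway and cell-type lists drawn up for this work were not used. The 7 symbols matched the RefSeq gene table and 5 of them the promoter table (GRCr8).

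Members and lists were chosen with earlier results of these data known. The genes named are the 7 members, 2 IDs by likeness and the 2 IDs called in the fit with the block. The last 2 were named after their values were seen. Groups came from the labels. edgeR 4.0.16 (R 4.3.3) quasi-likelihood tests used column totals without TMM, the filterByExpr filter (10 counts at the median library size, 15 in total), all 8 samples and no covariate, with Benjamini-Hochberg adjustment at 0.05 over 3016 genes. log2 CPM for correlations used a prior count of 2. The edgeR fit without a block was run on simulated counts with planted differences. That simulation had a smaller spread between samples than the same fit found here, and no effect of sample number. It therefore says nothing about what could be detected for the 7 members. Titles number samples 1 to 4 in each group. Same-number deviations from group means correlated at 0.34, 0.40, 0.27 and 0.51 across genes, and different-number ones at -0.37 to 0.25. The number was therefore treated as pairing samples in the fit with the block, on the evidence of the counts alone. The main fit leaves this pairing out. In both groups samples 1 and 2 were deeper than samples 3 and 4. The part of depth in these correlations was not tested. The fit with the block is given where it differs. Alternatives were TMM, DESeq2 1.42.0 or its size factors, limma 3.58.1 voom, other filters, thinning, dropping 20 abundant genes, the block and leaving out samples.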

Additional observations from a re-analysis of the deposited data

Results flagged for a closer look

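Of 32 sets of 4 values examined (levels, C1q shares and count ratios of these genes per group), 2 had 1 value set apart from the rest of its group; about 1 set in 20 does so by chance. Both concern C1qa in untrained sample 4. C1qa took 15.97% of C1q counts there, while the remaining untrained libraries lay between 8.09% and 9.01%. The same library had 0.232 C1qa counts per C1qc count, and the others 0.13 to 0.141. The share rests on 23 of 144 counts (Wilson 95% interval 10.9% to 22.8%, counting error only). Trained sample 3 had a similar share of 15%, on 9 of 60 counts.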

How the results depend on the processing

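Over all genes, 0 calls between trained and untrained held in 17 of 23 alternatives, with DESeq2 and limma voom among them (53 of 3016 genes at an unadjusted p under 0.05 by voom). edgeR called 5 without the filter, 2 with the replicate block, 11 with both, and 3, 1 and 2 in blocked fits without both samples numbered 1, 2 and 4. Leaving out 1 sample gave 0 calls throughout. Blocked fits with TMM, or without samples numbered 3, called 0. The number of genes differing among sample numbers ran from 58 to 633 when 1 sample was left out. Without the filter C1qc differed among numbers (adjusted p = 0.0444 by edgeR). None of the 7 genes was called between trained and untrained in their 145 alternatives. The sign of Aif1, C1qa and C1qc, whose log2 fold changes were at most 0.15, was not stable: leave-one-out values ran from -0.25 to 0.37, -0.0822 to 0.56 and -0.17 to 0.22. In blocked fits without both samples numbered 1 they were -0.16, -0.15 and -0.28; without those numbered 2 Aif1 was at -0.0646, and without those numbered 4 C1qc was at -0.0123. C1qc was at 0 in thinned counts. C1qb and B2m stayed above 0 and RT1-Da below 0 in all alternatives run (0.04 to 0.64, 0.02 to 0.27 and -0.64 to -0.05). The log2 ratio of mean Cd74 CPM ran from -0.14 to 0.62 with 1 sample left out. The cause of these shifts was not tested. The blocked fits with TMM, with no filter and without both samples of 1 number, the permutation tests and the correlations within numbers were chosen after seeing the data. Mean counts under 20 per library limit Aif1, C1qa, Cd74 and RT1-Da.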
